A study of Mus musculus with 8 samples.

Results

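Calca, Ramp1, Ramp3, Calcrl, Nmur1, Vipr1, Vipr2 and Penk are genes for neuropeptides and for neural receptors. These 8 genes, of the 32285 in the files, were taken by symbol and followed in immune cells sorted from the brain. Single-cell RNA sequencing with the 10x Genomics 5′ kit covered CD45.2+ cells of C57BL/6J (WT) mice and of App NL-G-F mice (APP), whose own App gene was given a human amyloid beta sequence and familial Alzheimer's disease mutations. The labels give an age of 16 weeks for all animals, which differs from the age in the study's methods. Control mice drank water, acute colitis mice received 2% dextran sulfate sodium (DSS) for 7 days, and chronic colitis mice received 3 cycles of 2% DSS, each for 5 days and followed by water. Food allergy mice were sensitized to ovalbumin with alum and then given it by mouth. Each of these 8 conditions is 1 library, in which animals were pooled after marking with hashtag antibodies. Cells inside vessels were tagged by an injected anti-CD45 antibody, of which the deposited counts carry no trace.

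After cell calling, the libraries held between 4875 and 7199 cells, with 25619903 to 54618574 unique molecular identifiers (UMIs) in cells. Of 48587 barcodes among the 50106 cells, 1485 occurred in 2 or more libraries. Clusters were named from marker genes as 24 types, so each name below means cells like that type, and 434 cells stayed unnamed. Hashtags divided the libraries into 30 groups. In 29 of them the summed level of 10 immediate-early genes in T cells could be read, and the groups fell into a low set of 13 (624 to 1668 UMIs per 1000000, CPM) and a high set of 16 (3323 to 6318 CPM). The high set was hashtags 6 and 7 in control and chronic colitis and hashtags 4 and 5 in acute colitis and food allergy. Within a condition the set thus cannot be told apart from whatever the hashtag pairs stand for, which the labels do not give. Between conditions the pairs change sets, and no fit used the pair as a term. Fibroblasts were counted in every high group (1 to 62 cells) and in none of the low groups. The sets were found in the data and are not groups of the study. For APP chronic colitis the study counts fewer animals than hashtags were found, so some of these hashtag groups share an animal and p-values that rest on them are too small. Fits with these groups summed by set, added after seeing the data, are given beside the results for chronic colitis.

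CGRP, the peptide that *Calca* encodes beside calcitonin, is released by sensory neurons and acts through a receptor made of CALCRL and RAMP1, which raises cAMP. CALCRL with RAMP2 or RAMP3 binds adrenomedullin instead. Group 2 innate lymphoid cells (ILC2) are tissue-resident sources of type 2 cytokines, and neuromedin U acting through NMUR1 and VIP acting through VIPR2 are known to stimulate them, whereas CGRP is known to restrain their proliferation. VIPR1 is the other receptor shared by VIP and PACAP, and *Penk* encodes proenkephalin, the precursor of the enkephalins.

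*Calca* (ENSMUSG00000030669) is a protein-coding gene on the minus strand of GRCm38 at chr7:114631478-114636357, and *Ramp3* (ENSMUSG00000041046) lies on the plus strand at chr11:6658521-6677475. The other members are *Ramp1* at chr1:91179822-91225196, *Calcrl* at chr2:84330626-84425411, *Nmur1* at chr1:86386303-86426228, *Vipr1* at chr9:121642716-121672954, *Vipr2* at chr12:116077726-116146261 and *Penk* at chr4:4133531-4138819. The annotated calcitonin and CGRP transcripts of *Calca* share 2 exons on the 5′ side and differ at the 3′ end, so the 5′ counts do not tell the products apart.

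RefSeq promoters (GRCm38.p6) were matched for 7 of the 8 members, all but *Penk*. The promoters of *Calca* and *Ramp3* are shown because these are the members whose levels moved together in ILC2. Each sequence is the 250 bases before the RefSeq start, and the capitals mark TGACG, the half-site of the cAMP-response element, searched on either strand.
Calca (chr7:114636358-114636607, − strand): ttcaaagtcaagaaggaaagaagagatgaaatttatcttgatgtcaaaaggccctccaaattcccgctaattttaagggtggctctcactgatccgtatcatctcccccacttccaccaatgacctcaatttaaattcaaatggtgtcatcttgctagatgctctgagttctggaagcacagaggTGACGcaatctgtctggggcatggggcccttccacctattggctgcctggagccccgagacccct
Ramp3 (chr11:6658283-6658532, + strand): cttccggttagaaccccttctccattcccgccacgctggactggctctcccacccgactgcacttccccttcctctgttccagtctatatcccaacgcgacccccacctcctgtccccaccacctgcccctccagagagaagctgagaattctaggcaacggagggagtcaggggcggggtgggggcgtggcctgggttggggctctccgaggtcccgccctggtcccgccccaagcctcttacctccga
The *Calca* promoter held the half-site 65 bases before the start and a GATA motif (AGATAA) 218 bases before it. A half-site was found in 17.8% of 32851 such promoters and AGATAA in 9.99%. The full element (TGACGTCA, in 1.55% of promoters) and the AP-1 motif (TGANTCA, in 6.75%) were in neither window, and *Ramp3* held none of the 4 motifs in this window. *Vipr1* held a half-site 13 bases before its start.

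To place the members among the cell types, UMIs were summed per type and library and given as CPM of that type's UMIs. Since the kit counts 5′ ends, CPM is compared between types and not between genes. *Calca*, *Nmur1* and *Vipr2* were highest in ILC2, *Ramp1* in gamma-delta T cells, *Ramp3* in migratory dendritic cells (DC), and *Penk* in fibroblasts. ILC2 (4566 cells) carried the defining genes *Gata3* in 76.7%, *Il7r* in 94.9% and *Il1rl1* in 59.6% of cells, with *Cd3e* in 2.76% and *Cd79a* in 3.46%.

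**Figure D1:**
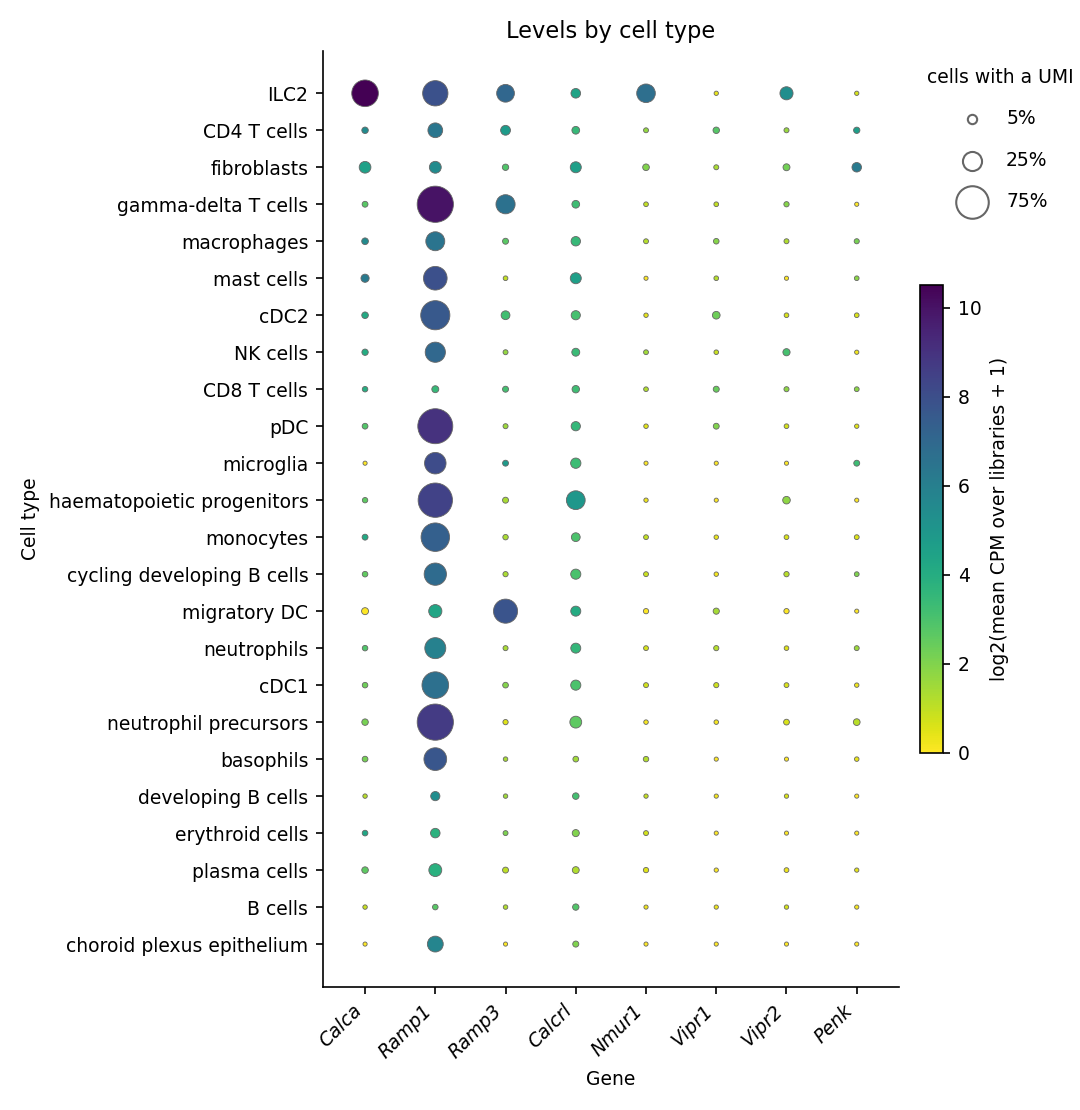
Mean level over libraries (colour, log2 of CPM + 1) and share of cells with a UMI (point area) of the 8 genes (x axis) in 24 cell types (y axis). Calca, Nmur1 and Vipr2 stand out in ILC2 and Ramp1 in gamma-delta T cells, pDC and neutrophil precursors.

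*Calca* was at 1466 ± 1489 CPM (SD, n = 8 libraries) in ILC2, with a lowest library of 315 (WT food allergy), a median of 548 and a highest of 3853 (APP control). Both control libraries, at 3586 and 3853 CPM, lay above the other 6, the highest of which was APP acute colitis at 1969. A UMI of *Calca* was found in 49.8% of ILC2 and in 0.184% of B cells, which should lack the gene, at median depths of 2689 and 2388 UMIs. The ambient profile of empty droplets held 105 CPM on average. The level was uneven between cells: 50.2% of ILC2 had no *Calca* UMI, while 556 cells with 10 or more held 72.2% of all *Calca* UMIs in ILC2, up to 130 in a cell. Such cells were 27.5% of ILC2 in WT control and 29.1% in APP control, 13.03% in APP acute colitis and between 1.66% and 3.85% in the other 5 libraries.

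Outside ILC2, *Calca* was low. The next types in order were mast cells (73.8 ± 101 CPM, n = 7), macrophages (45.2 ± 73.7, n = 8) and CD4 T cells (43.7 ± 68.0, n = 8), and the ranges of these neighbours overlapped. The ranges of ILC2 and mast cells did not overlap. Cells with several hashtags, which can be doublets, held 56.9% of the *Calca* UMIs of mast cells, 81.8% of those of macrophages and 42.4% of those of CD4 T cells, against 5.34% in ILC2. In some other types most *Calca* UMIs lay in cells with 1 hashtag, as for 34 of 47 in fibroblasts and 40 of 51 in pDC. Of these 40 in pDC, 92.5% lay in 2 cells with 10 or more. Cells with 10 or more UMIs held 69.1% of the *Calca* UMIs of CD4 T cells and 79.6% of those of macrophages, whereas no fibroblast reached 10 and 31 of 360 fibroblasts had a UMI. Among CD8 T cells with 1 hashtag, 35.7% of 14 *Calca*-positive cells also had the ILC2 marker *Il1rl1*, against 0.229% of the *Calca*-negative cells. In fibroblasts with 1 hashtag these shares were 8.70% of 23 and 1.27%, and in the regulatory gate of CD4 T cells 46.2% of 13 and 12.98%. Within CD4 T cells, the regulatory (*Foxp3*-positive) gate reached 143 ± 297 CPM (n = 7), but 78 of the 86 *Calca* UMIs in its hashtag groups came from APP acute colitis. These 78 lay in 4 cells of hashtag 7. Of the gate's 117 UMIs in all, 106 lay in cells with 1 hashtag, and 2 cells with 10 or more held 63.2% of those 106.

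*Nmur1*, the receptor of neuromedin U, was far higher in ILC2 than in any other type. It was at 104 ± 19.5 CPM (n = 8), from 78.9 in APP control to 131 in APP chronic colitis, with a UMI in 23.7% of cells against 0.0284% of B cells. No other of the 24 types exceeded 2.99 CPM, and the ILC2 range did not overlap the next. The regulatory gate within CD4 T cells was at 5.06 ± 5.67 CPM (n = 7), from 5 UMIs in all. *Vipr2*, which responds to VIP, was likewise highest in ILC2, at 40.3 ± 8.75 CPM (26.1 to 52.7), with a UMI in 11.1% of cells against 0.128% of B cells. NK cells came next at 7.63 ± 3.14 CPM and were lower than ILC2 in 8 of 8 libraries. *Nmur1* was detected in 25% of ILC2 with *Vipr2* and in 23.5% of those without it.

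*Ramp1*, the subunit that turns CALCRL into the CGRP receptor, was broad. Gamma-delta T cells led with 1027 ± 144 CPM (n = 8, 824 to 1287) and a UMI in 93.4% of cells, and they were above the next type in 8 of 8 libraries. Plasmacytoid DC (pDC) followed at 514 ± 39.8, neutrophil precursors at 408 ± 62.0 and haematopoietic progenitors at 348 ± 82.9 CPM, with overlapping ranges between these neighbours. ILC2 were at 241 ± 35.3 CPM, from 192 in WT control to 281 in APP chronic colitis. B cells (5.60 ± 3.502 CPM, 0.993% of cells) were far lower, whereas the ambient profile held 168 CPM. *Ramp3* led in migratory DC at 223 ± 173 CPM, which only 3 libraries could show, then in ILC2 at 131 ± 118 and gamma-delta T cells at 96.8 ± 30.8 CPM, and ILC2 exceeded gamma-delta T cells in 4 of 8 libraries. In ILC2, *Ramp3* was at 366 CPM in WT control and 263 in APP control, above the other 6 libraries at 34.8 to 99.5.

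*Calcrl*, the receptor protein itself, was low everywhere and its leading types overlapped. Haematopoietic progenitors were at 29.997 ± 10.9, mast cells at 23.9 ± 10.2, fibroblasts at 23.8 ± 14.0 and ILC2 at 20.2 ± 5.44 CPM, while B cells were at 6.32 ± 2.22 and the ambient profile at 15.1 CPM. *Calcrl* and *Ramp1* were found in the same cell in 22.3% of haematopoietic progenitors (95% exact binomial interval 19.5 to 25.3%), 8.36% of neutrophil precursors, 4.13% of pDC and 2.91% of ILC2 (2.44 to 3.44%, 133 cells). These shares follow depth as well, since the median cell held 9600 UMIs in progenitors, 18576 in neutrophil precursors and 2689 in ILC2, and the part of depth was not tested. Of ILC2 with *Calcrl*, 53.8% had *Ramp1*, against 44.9% of all ILC2. The adrenomedullin-forming pair *Calcrl* and *Ramp3* was found in 43 ILC2.

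*Vipr1* and *Penk* were almost undetected in ILC2, with 4 and 9 UMIs in all. *Vipr1* was highest in CD4 T cells (5.79 ± 2.67 CPM), CD8 T cells (4.49 ± 2.06) and conventional DC of type 2 (4.06 ± 2.99), whose ranges overlapped. *Penk* was at 73.1 ± 84.2 CPM (n = 5 libraries) in fibroblasts, from 19 of 360 cells with up to 40 UMIs in a cell. That cell held all *Penk* UMIs of the fibroblasts of APP acute colitis, and without this library the mean was 35.6 ± 10.02 CPM (n = 4). CD4 T cells were at 24.6 ± 21.7 CPM (n = 8), and the ranges overlapped. There 78 of 4816 cells had a *Penk* UMI, and 13 cells with 10 or more held 61.8% of the UMIs. *Penk*-positive CD4 T cells more often had a UMI of the activation gene *Tnfrsf4* (67.9% against 22.3%), of *S100a4* (60.3% against 31.8%) and of *Ifng* (25.6% against 10.2%), at median depths of 2732 and 2586 UMIs. These shares are over cells and carry no test.

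Across the 24 types, the patterns most like those of the members were named by Pearson's r of log2 CPM, which is given as a description since types share libraries. *Nmur1* was nearest to *Dach2* (r = 0.95), *Il5* (0.92) and *Arg1* (0.91), and *Vipr2* to *Arg1* (0.93), *Ccdc184* (0.89) and *Dach2* (0.88), with *Nmur1* and *Vipr2* among each other's nearest 5 (0.86). *Calca* was nearest to *Acer2* (0.83), *Neb* (0.82) and *Gata3* (0.81), *Ramp1* to *Abhd15* (0.81), *Ramp3* to *Stc2* (0.82) and *Icos* (0.81), *Calcrl* to *Nup98* (0.76), *Vipr1* to *Klrd1* (0.78) and *Penk* to *Ms4a4d* (0.77).

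To compare conditions, UMIs of ILC2 were summed in each hashtag group with at least 10 ILC2 and a set, which gave 28 groups. *Calca* did not differ between conditions in the same way in the groups of a library. In WT control it was at 64.6 and 49.3 CPM in the low groups and at 3961 and 6504 in the high groups. In APP control it was at 343 and 432 in the low groups and at 2901 and 7035 in the high groups. In controls of either genotype every high group was thus above every low group.

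In acute colitis the order of the sets was the other way round, but that of the hashtag pairs was not. Hashtags 6 and 7, high in controls and low in acute colitis, were at means of 5100 and 9860 CPM. Hashtags 4 and 5 were at 222 and 179 CPM. In WT acute colitis the high groups were at 173 and 214 CPM and the low group at 7244, and in APP acute colitis the high groups were at 252 and 76.2 and the low group at 12477. The low groups of acute colitis are small, with 18 and 67 ILC2. In APP acute colitis hashtag 6 marked no cell, while hashtag 7, its low group, was read at the lowest cutoff of 50 counts. It marked 4223 cells, against 1737 and 1870 for hashtags 4 and 5. The study counts more animals for this condition than hashtags were found, and whether the low group mixes animals was not tested. In chronic colitis the low groups were again above the high groups, at 1719 against 603 and 334 CPM in WT and at 1617 and 1494 against 232 and 287 in APP. These low groups carry hashtag 4 or 5, as in controls, so here the order of the pairs was turned as well. In food allergy the groups lay close together, at 417 and 274 (high) and 233 (low) in WT and at 318 and 618 (high) and 255 and 329 (low) in APP.

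**Figure D2:**
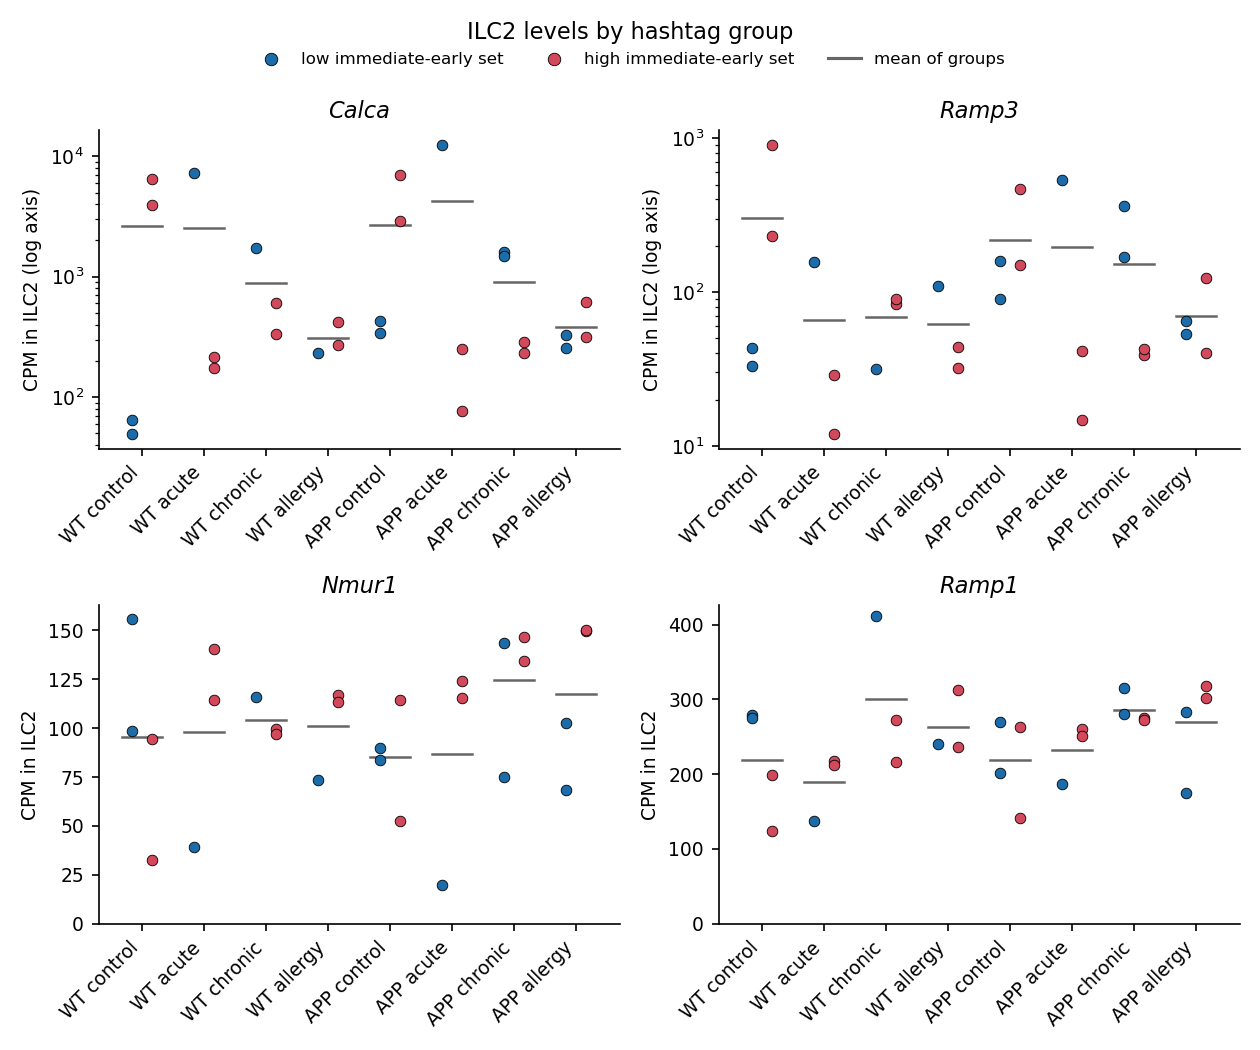
CPM of Calca, Ramp3 (log axes), Nmur1 and Ramp1 in ILC2 for each of 28 hashtag groups, by condition; points are groups, coloured by immediate-early set, and lines are means of the groups. High groups are above low groups for Calca in the controls and below them in acute and chronic colitis.

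*Ramp3* took the order of *Calca* in WT control and in acute colitis, but not in every condition. In controls its high groups were at 232 and 908 CPM in WT and 149 and 467 in APP, against 43.0 and 32.9 in the WT and 160 and 90.02 in the APP low groups. In acute colitis the high groups were at 11.9, 29.0, 41.5 and 14.7 CPM and the low groups at 157 (WT) and 532 (APP). In chronic colitis the WT low group, at 31.6 CPM, was below the WT high groups at 83.7 and 90.7, while the APP low groups, at 169 and 360, were above the APP high groups at 39.1 and 42.8. In food allergy *Ramp3* lay between 32.0 and 123 CPM in all groups. *Nmur1* ran against *Calca* in acute colitis, at 115 to 140 CPM in the high groups and at 39.3 and 20.0 in the low groups, although these 2 low values rest on 2 and 3 UMIs.

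A set term for each treatment, chosen after these values had been seen, was then fitted. The difference of high minus low set for *Calca* was 4.84 on the log2 scale in controls (SE 0.379), −5.57 in acute colitis (SE 0.378), −2.20 in chronic colitis (SE 0.349) and 0.65 in food allergy (SE 0.382). By edgeR's quasi-likelihood test with Benjamini-Hochberg adjustment over 7114 genes, the difference in acute colitis minus that in controls passed for 4 of 6 members tested: *Calca* (−10.4, adjusted p = 6.7e-17), *Ramp3* (−6.07, adjusted p = 2.62e-05), *Nmur1* (2.93, adjusted p = 0.00225) and *Ramp1* (1.12, adjusted p = 0.0456). Of all genes tested, 8.24% passed. The high set is hashtags 6 and 7 in controls but 4 and 5 in acute colitis and food allergy, so these differences also turn the sign of the pair. Taken as hashtags 6 and 7 minus 4 and 5, the *Calca* value was positive in both controls and acute colitis. In chronic colitis *Calca* (−7.04, adjusted p = 6.09e-12) and *Ramp3* (−3.95, adjusted p = 0.00654) passed, with 2.11% of all genes, and in food allergy *Calca* (−4.19, adjusted p = 3.63e-05), with 0.647% of all genes, by the same edgeR test. With the APP chronic colitis groups summed by set, *Calca* was at −6.95 and *Ramp3* at −3.78 (edgeR adjusted p = 8.22e-10 and 0.0329) in chronic colitis. Because the model was fitted after the order of the groups had been seen, and the low set of acute colitis is 1 group per genotype, these p-values describe the groups and are no independent support for that order.

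The result for *Calca* passed whichever group was left out. Without the low group of APP acute colitis, the values of *Ramp3* (−5.03, adjusted p = 0.328) and *Nmur1* (2.50, adjusted p = 0.235) in acute colitis no longer passed in edgeR, and without hashtag 5 of APP chronic colitis that of *Ramp3* in chronic colitis no longer passed (−3.20, adjusted p = 0.188). *Ramp1* no longer passed when any 1 of 16 groups was left out, nor with DESeq2 (adjusted p = 0.0667).

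**Figure D3:**
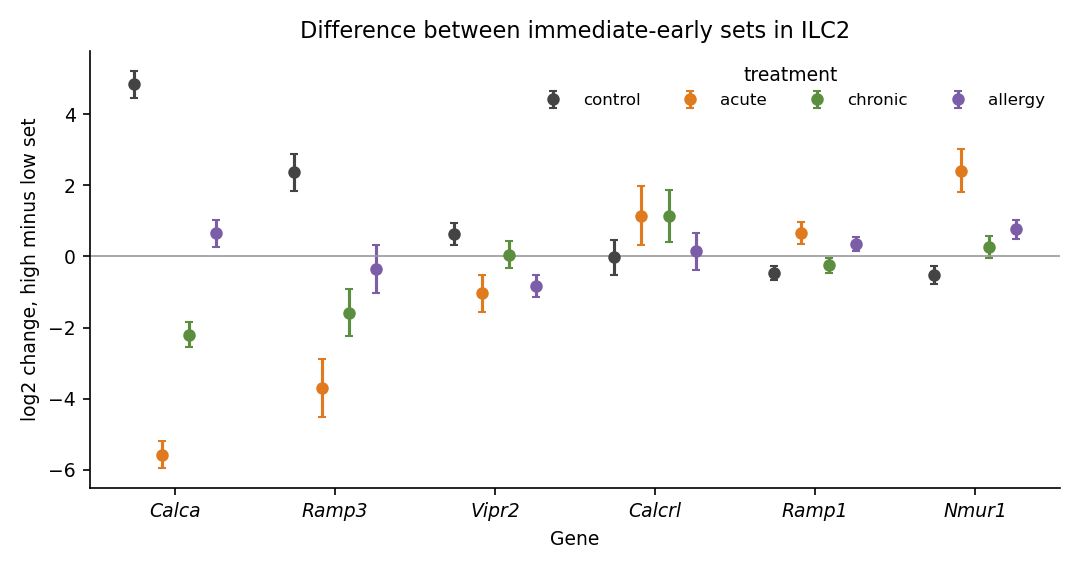
Difference between the high and low immediate-early sets in ILC2 (y axis, log2 change, bars are SE) for 6 members (x axis) in each treatment (colour). The value for Calca is 4.84 in controls and −5.57 in acute colitis.

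With 1 set term for all conditions, few members passed between conditions. *Vipr1* and *Penk* were too low to be tested in ILC2. *Ramp3* fell in food allergy against control by 2.11 on the log2 scale (SE 0.588, edgeR adjusted p = 0.0394), and it was the only 1 of 6 members tested to pass there, where 3.01% of all genes did. This call was lost when any 1 of 8 groups was left out, which were WT control 7, WT chronic colitis 6, WT food allergy 4 and 5, APP control 7 and APP food allergy 4, 6 and 7, each by its hashtag. Without hashtag 7 of WT control it was −1.46 (edgeR adjusted p = 0.161), and without hashtag 7 of APP control −1.72 (edgeR adjusted p = 0.196). It was also lost with the APP chronic colitis groups summed by set (−2.11, edgeR adjusted p = 0.0528). *Calca* was at −3.06 in food allergy (SE 0.916, edgeR adjusted p = 0.0607), −2.09 in chronic colitis (SE 0.982, edgeR adjusted p = 0.321) and −0.56 in acute colitis (SE 1.11, edgeR adjusted p = 0.917). Among fits without 1 group, the food allergy value of *Calca* passed without hashtag 4 or 5 of WT control, hashtag 4 or 5 of APP control or hashtag 7 of APP acute colitis. In acute colitis 0 of 6 members passed by edgeR or DESeq2 (1.39% of all genes by edgeR), with 1 at an unadjusted p under 0.05 by either tool. In chronic colitis 0 of 6 passed by either tool (2.12% of all genes by edgeR), with 4 at an unadjusted p under 0.05 by edgeR and 3 by DESeq2. The share of all genes at that unadjusted threshold is not given here, so the unadjusted counts have no background to be set against. In food allergy DESeq2 called *Calca* (adjusted p = 0.0278) in place of *Ramp3* (adjusted p = 0.0675).

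These counts changed when the sets were taken apart. Within 1 set, acute colitis and food allergy carry the other hashtag pair than control, and only chronic colitis carries the same pair. Their differences from control within a set thus cannot be told apart from a difference between the pairs. In the high set alone 4 of 6 members passed by edgeR in acute colitis, chronic colitis and food allergy each, where 10.4%, 9.6% and 9.06% of all genes passed. *Calca* was there at −4.78, −3.77 and −3.58 on the log2 scale and *Ramp3* at −4.08, −2.69 and −2.79, whereas in the low set alone *Calca* was at 5.96, 3.53 and 0.94. *Nmur1* rose in the high set by 0.81, 0.76 and 0.90 (edgeR adjusted p = 0.0131, 0.0175 and 0.00599). The fourth member was *Vipr2* in acute colitis (−0.95, edgeR adjusted p = 0.0115) and *Ramp1* in chronic colitis and food allergy (0.62 and 0.78, edgeR adjusted p = 0.0103 and 0.00202).

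Averaged over treatments, APP minus WT was 0.30 for *Calca* (SE 0.623), 0.66 for *Ramp3* (SE 0.496), 0.12 for *Nmur1* (SE 0.169) and −0.35 for *Vipr2* (SE 0.175) on the log2 scale, and 0 of 6 members passed by edgeR, with 1.35% of all genes passing. For the difference of a treatment's effect between APP and WT, 0 of 6 members passed in acute colitis, chronic colitis or food allergy, where 0.731%, 1.03% and 0.464% of all genes passed. For the set term itself 0 of 6 passed, with 6.97% of all genes passing. In these 5 comparisons no member had an unadjusted p under 0.05 by edgeR or by DESeq2. Of 56 exact two-sided permutation tests of log2 CPM between pairs of conditions, 1 had p = 0.0286, the smallest that 4 groups against 4 allow, and every adjusted p was 1.

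Over the 28 groups, *Ramp3* rose with *Calca* (log2 of CPM + 1, Pearson's r = 0.81, permutation p = 1e-05, the smallest that 100000 permutations can give, adjusted over 13 relations 6.5e-05, and Spearman's rho = 0.78). Within the low set r was 0.69 (n = 12), within the high set 0.94 (n = 16), and without the 2 groups highest in *Calca* 0.79. *Nmur1* fell with *Calca* (r = −0.67, permutation p = 0.00014, adjusted 0.000607, rho = −0.48), at −0.67 in the low set, −0.74 in the high set and −0.51 without those 2 groups. *Ramp1* gave r = −0.48 but rho = −0.26 (permutation p = 0.0107 and 0.188), and −0.35 without those 2 groups. *Vipr2* gave r = 0.42 (permutation p = 0.0239, adjusted 0.0388) and rho = 0.40 (permutation p = 0.0345, adjusted 0.0561), so that its rank correlation did not pass, and *Calcrl* −0.19 (permutation p = 0.328). The sums for each group share a denominator, and the groups of a library share a sequencing library. Within libraries, r was 0.86 for *Ramp3* and −0.72 for *Nmur1*.

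**Figure D4:**
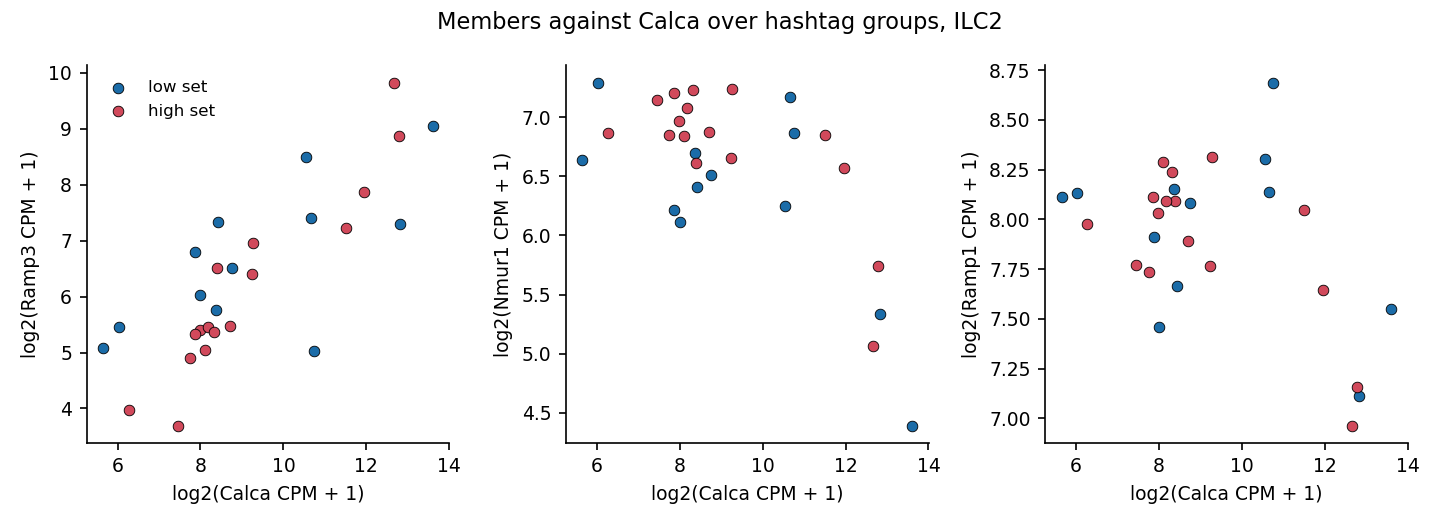
Ramp3, Nmur1 and Ramp1 (y axes) against Calca (x axes) in ILC2, as log2 of CPM + 1, over 28 hashtag groups coloured by immediate-early set. Ramp3 is high where Calca is high (r = 0.81), the 4 groups highest in Calca are the 4 lowest in Nmur1, and 3 of them are the lowest in Ramp1.

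The same relation was looked for between cells of a group. In the 4 groups with enough cells of either kind, ILC2 with 10 or more *Calca* UMIs held 620 ± 391 CPM of *Ramp3* and ILC2 with none 226 ± 217 (SD, n = 4 groups, higher in 4 of 4). *Nmur1* was at 72.1 ± 38.7 and 78.4 ± 34.3 CPM and was higher in 2 of 4, so its fall over groups was not seen between these cells. *Calcrl* and *Ramp1* were lower in 3 of 4. Cells of the first kind were shallower, with a median of 2178 UMIs over all libraries against 2867.

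Sub-clustering of ILC2 gave 6 sub-clusters, whose leading genes are a description and no test. *Calca* was at 4882 CPM in the sub-cluster led by *Ptgds*, *S100a5* and *Il5* (860 cells, 95.8% of those with a set in the high set), which also held 493 CPM of *Ramp3*. Only 2 libraries gave a value of their own for this sub-cluster, at 4959 and 7041 CPM. *Calca* was at 2427 CPM in the sub-cluster led by *Socs1* (786 cells, 24.3% in the high set), with values from 117 to 10807 over 8 libraries. In the largest, led by *Nr4a2*, *Areg* and *Egr1* (2566 cells, 98.3% in the high set), it was at 575 CPM. High *Calca* occurred in sub-clusters of unlike immediate-early level, at 21097 and 3698 CPM of the immediate-early genes. Of 150 cells led by B cell genes, 60.7% carried several hashtags.

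Genes that cAMP is known to induce were followed as a list of 8, each tested in ILC2. In food allergy 3 of 8 fell and none rose by edgeR: *Crem*, an early cAMP repressor (−1.88, adjusted p = 0.0375), the AP-1 gene *Fosl2* (−1.54, adjusted p = 0.0384) and the phosphodiesterase *Pde4d* (−1.71, adjusted p = 0.00914), with a list median of −0.86 beside −0.008 over all genes, of which 3.01% passed. In chronic colitis *Pde3b* fell (−0.58, edgeR adjusted p = 0.0492), and in acute colitis the list median was −0.56 without a call. Fits of this list were not repeated under other settings or without a group. In the high set 5 of 8 rose and none fell, where 6.97% of all genes passed, with *Rgs2*, which shortens G protein signals, at 2.23 and *Per1* at 0.71 (edgeR adjusted p = 2.22e-09 and 0.000661). None of the 8 is among the 10 genes that defined the sets, but the sets were defined by immediate-early genes in the same hashtag groups, so this count is not independent of the split. Over the 28 groups *Crem* rose with *Calca* (r = 0.77, permutation p = 1e-05, rho = 0.74), and ILC2 with 10 or more *Calca* UMIs held 344 ± 236 CPM of it against 109 ± 58.6 in those with none (higher in 4 of 4 groups). For the rest of the list, r over groups ran from 0.20 (*Rgs2*) to 0.58 (*Fosl2*). Between these cells the list was mixed. *Fosl2*, *Rgs2* and *Pde4b* were higher in 4 of 4 groups and *Sik1* in 3, whereas *Pde4d* was lower in 4 of 4 and *Per1* and *Pde3b* in 3.

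The other genes of these peptide systems were followed by their level. Of the 7 further genes of the CGRP and adrenomedullin system, 3 exceeded 20 CPM in some type. These were *Crcp*, named for a component of the CGRP receptor and also a subunit of RNA polymerase III (64.8 CPM in microglia, 25.8 in ILC2), *Ramp2* in fibroblasts (758 CPM, 0.83 in ILC2) and *Adm*, which encodes adrenomedullin (26.5 in fibroblasts). None of the 3 further neuromedin genes had a UMI in any cell, so no ligand of NMUR1 was detected. None of the 8 genes of the VIP and PACAP system exceeded 20 CPM, and of the 7 of the opioid system *Oprd1*, the delta receptor, did in migratory DC (24.0 CPM). Among the genes that process or degrade peptides, 8 of 11 did, with *Furin* at 81.1 and *Ide* at 72.3 CPM in ILC2. *Ide*, which also degrades amyloid beta, was higher in APP than in WT ILC2 by 0.56 on the log2 scale (SE 0.122, edgeR adjusted p = 0.00859). In that comparison 1.35% of all genes passed, and the fit of *Ide* was not repeated under other settings. Other neural genes marked mast cells, with the serotonin genes *Tph1* at 914 and *Slc6a4* at 891 CPM and the peptide receptor *Mrgprb2* at 334.

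Outside ILC2, *Ramp1* and *Ramp3* could be tested in gamma-delta T cells over 26 hashtag groups. *Ramp1* was higher in the high set, at 1114 ± 165 CPM (n = 16, 875 to 1367) against 927 ± 122 (n = 10, 700 to 1070), a log2 change of 0.36 (SE 0.0772, edgeR adjusted p = 0.00301), while 3.79% of all genes passed. It passed whichever group was left out (0.31 to 0.38). *Ramp3* fell in chronic colitis by 1.34 on the log2 scale (SE 0.345, edgeR adjusted p = 0.0243, 2.75% of all genes), from 165 ± 110 CPM in controls (n = 7) to 64.7 ± 22.3 (n = 7), with overlapping groups. Without hashtag 7 of WT control, which was at 381 CPM, the value was −0.69 (edgeR adjusted p = 0.234). In 5 of 26 such fits it no longer passed, the others being those without hashtag 7 of APP control (−1.04), hashtags 6 and 7 of WT chronic colitis, each in turn, and hashtag 6 of APP chronic colitis. With the APP chronic colitis groups summed by set it was −1.34 (edgeR adjusted p = 0.0455). *Ramp1* in pDC was at 565 ± 96.4 CPM in the low (n = 7) and 491 ± 92.2 in the high set (n = 14), and in neutrophil precursors at 419 ± 70.1 (n = 10) and 360 ± 80.9 (n = 13), with no test.

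**Figure D5:**
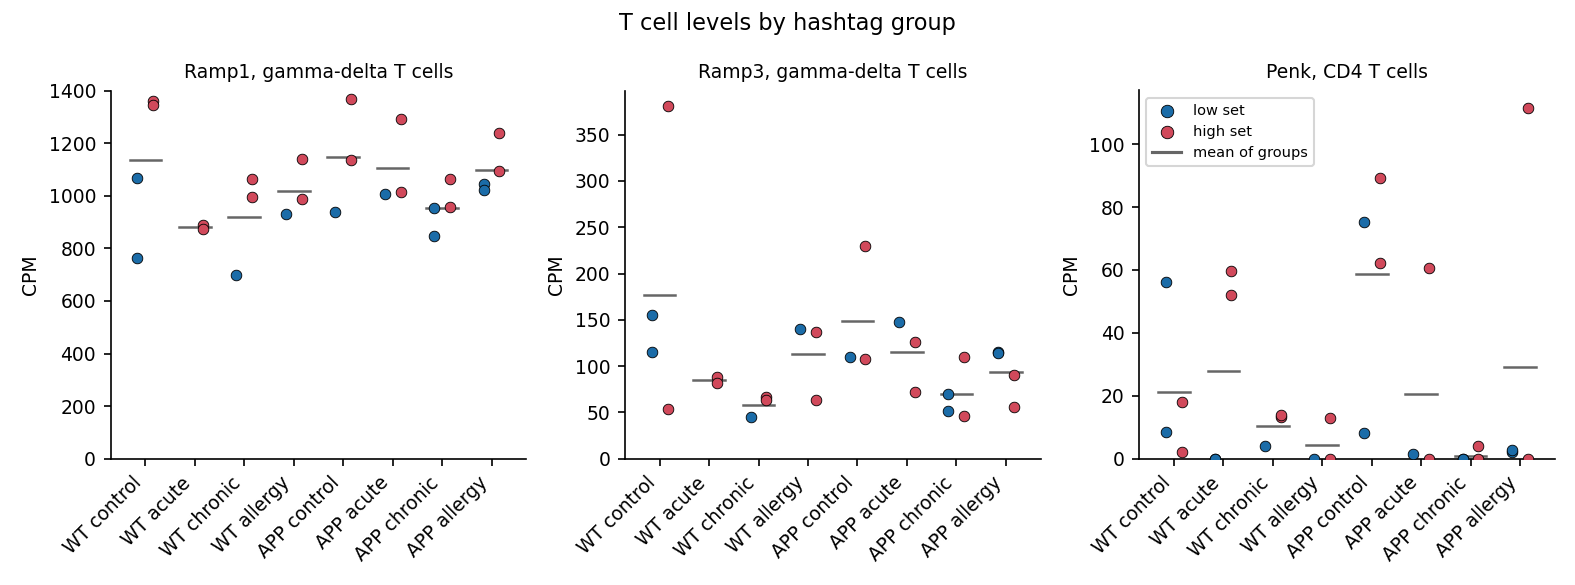
CPM of Ramp1 and Ramp3 in gamma-delta T cells and of Penk in CD4 T cells by hashtag group and condition; points are groups coloured by immediate-early set and lines are their means. Ramp3 reaches 381 CPM in WT control, and Penk is near 0 in chronic colitis of APP mice.

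*Penk* in CD4 T cells was read over 29 groups. In controls it was at 40.0 ± 34.6 CPM (n = 8, 2.04 to 89.3) and in chronic colitis at 5.01 ± 6.13 (n = 7, 0 to 14.0), and the groups overlapped. The change of −3.63 on the log2 scale (SE 1.002) did not pass in edgeR (adjusted p = 0.0520), but did in DESeq2 (−4.41, adjusted p = 0.0183) and in 9 of 29 fits without a group. With the APP chronic colitis groups summed by set it did not (−3.64, edgeR adjusted p = 0.0899). In 9 of the 29 groups no *Penk* UMI was found. Since 13 cells hold most of the UMIs, group values move with few cells.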

How the data were processed

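The deposited matrices hold UMI counts per gene and barcode without normalization, which the authors made with Cell Ranger 6.1.2 on mm10, per the submitters' processing notes, while the matrix headers name Cell Ranger 4. Hashtag antibody counts are deposited beside them. Cells were called anew above an order-of-magnitude cutoff (3000 expected cells) or against the ambient profile (at least 500 UMIs, false discovery rate 0.01), and kept with 200 or more genes and at most 5% mitochondrial UMIs. Doublets were not removed from the reported values, and an alternative leaves them out. Leiden clusters (scanpy 1.11.5, 2000 variable genes, 30 components, resolution 0.5) were named from marker lists. Treg and conventional CD4 cells were gated within CD4 T cells, and dendritic cell types came from clusters. Types with at least 20 cells in a library entered a mean. UMIs summed per hashtag group were tested with edgeR 4.0.16 (quasi-likelihood, TMM, filterByExpr, 1 set term), with Benjamini-Hochberg adjustment over all genes tested and a threshold of 0.05. DESeq2 1.42.0 was an alternative. In simulated ILC2 data for acute colitis against control (7114 genes), 67% of 2-fold and 97% of 4-fold changes were recovered.

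The members and gene lists were chosen with earlier results of these data known. The genes named beside the members were those of the fixed lists that passed, those over 20 CPM in a type and the 5 nearest in pattern. The labels do not tie hashtags to mice, so p-values measure only the spread between these hashtag groups, which may be technical. The study's methods give an age of 3 months and count 2 animals for APP chronic colitis, where 4 hashtags were found. Which hashtags share an animal is not given, so summing by set is 1 of the possible pairings. Intervals cover counting error only. Levels or fits of the members in ILC2 were recomputed under other cell calls, filters, doublet removal, resolutions, sets and tools, and without each hashtag group. The fits reported for gamma-delta T cells and CD4 T cells were repeated under fewer of these settings. Fits of genes other than the members were not repeated. Results for some listed genes are not reported here.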

Additional observations from a re-analysis of the deposited data

Results flagged for a closer look

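Within conditions of 4 hashtag groups, 24 sets of ILC2 values were examined for a group that lay far from the other 3, and chance marks about 1 in 20 such sets. *Calcrl* in hashtag 5 of WT control was at 32.9 CPM, against 16.1 to 17.3 in the other groups of that condition, and rests on 8 UMIs. *Nmur1* in hashtag 5 of APP chronic colitis was at 75.1 CPM, against 134 to 147 in the others, and rests on 10 UMIs.

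The difference between the high and low immediate-early sets in ILC2 itself differed between treatments, by an interaction term in edgeR. In acute colitis minus control the log2 value was −10.4 for *Calca* (SE 0.535), −6.07 for *Ramp3* (SE 0.969), 2.93 for *Nmur1* (SE 0.654) and 1.12 for *Ramp1* (SE 0.359). In chronic colitis minus control it was −7.04 for *Calca* (SE 0.518) and −3.95 for *Ramp3* (SE 0.870), and in food allergy minus control −4.19 for *Calca* (SE 0.550). Every high control group was above every low one in *Calca*, and every low group of acute and chronic colitis was above every high one of the same treatment. The model was chosen after these values had been seen, and the acute low groups are 2, with 18 and 67 ILC2.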

How the results depend on the processing

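The ILC2 levels of all 8 members moved by less than 1 SD between libraries with more barcodes called as cells, more mitochondrial UMIs, doublets removed, 1 hashtag per cell, another resolution, a marker gate, ambient subtraction, the high set alone and means over hashtag groups. For *Calca*, *Vipr1* and *Penk* that SD was larger than the mean level, so this rule could not have flagged even a full loss of them. With the order-of-magnitude cutoff alone *Nmur1* was at 83.4 and *Vipr2* at 30.5 CPM, and in the low set alone *Calca* was at 2987, *Nmur1* at 83.8 and *Vipr2* at 50.3 CPM. Thinned to 1000 UMIs, the share of ILC2 with a UMI was 36.8% for *Calca*, 20.8% for *Ramp1*, 11.9% for *Ramp3*, 2.04% for *Calcrl*, 9.43% for *Nmur1*, 0% for *Vipr1* and 4.82% for *Vipr2*. Without each library in turn, *Calca* ran from 1125 to 1630 CPM.

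The number of members that passed in ILC2 changed with the design. Without a filter on low counts it was 2 in acute colitis, 3 in chronic colitis, 3 in food allergy, 2 in APP minus WT, 2 in the acute effect between genotypes and 1 for the set term. Leaving out the filter can lower p-values at nearly the same effect. For *Penk* in CD4 T cells in chronic colitis, the edgeR adjusted p was 0.0520 with it (−3.63) and 5.38e-17 without it (−3.64). In the high set alone it was 4 in each of acute colitis, chronic colitis and food allergy, where 10.4%, 9.6% and 9.06% of all genes passed. In the low set alone it was 3 in acute colitis, 1 in chronic colitis, 2 in APP minus WT and 1, 1 and 2 in the genotype differences of acute colitis, chronic colitis and food allergy. In food allergy it was 0 with no set term, 0 with at least 30 cells per group and 0 with the APP chronic colitis groups summed by set. Leaving out each group gave 0 to 1 members in acute colitis and 0 to 2 in food allergy. For the treatment-specific set terms it gave 1 to 5 in acute colitis and likewise 1 to 5 in food allergy, where DESeq2 gave 2, and 1 to 2 in chronic colitis. The causes were not tested, beyond the fewer groups in each set. For the other settings the share of all genes that passed is not given here, so their counts do not set the members apart from other genes.

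Directions turned mainly in the low set alone. There the log2 change was 5.96 for *Calca*, 1.87 for *Ramp3*, −1.94 for *Nmur1*, −0.70 for *Ramp1* and 0.43 for *Vipr2* in acute colitis, 3.53 for *Calca* and 0.32 for *Ramp3* in chronic colitis, 0.94 for *Calca*, 0.21 for *Ramp3*, −0.30 for *Nmur1* and 0.77 for *Vipr2* in food allergy, and −0.27 for *Nmur1*, −0.055 for *Ramp1* and 0.26 for *Vipr2* in APP minus WT. In the high set alone APP minus WT was −0.17 for *Calca*, −0.078 for *Ramp3* and 0.054 for *Calcrl*. With no set term *Calca* in acute colitis was 0.15. The set term was 0.041 for *Ramp1* without a filter, and 0.020 for *Ramp1* and 0.10 for *Calca* with at least 30 cells per group. Without each group in turn, *Calca* in acute colitis ran from −2.23 to 0.068, *Calca* in APP minus WT from −0.75 to 1.23, *Calcrl* in food allergy from −0.087 to 0.28, *Vipr2* there from −0.29 to 0.0059 and *Calcrl* in APP minus WT from −0.29 to 0.027. The set term ran from −0.094 to 0.044 for *Ramp1*, from −1.19 to 0.10 for *Calca* and from −0.53 to 0.47 for *Ramp3*.

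No paired analysis was possible because each condition is 1 library and its labels carry no replicate numbers that other conditions share. Low counts limit *Calcrl*, *Vipr1* and *Penk* in ILC2.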
